A study of Mus musculus with 14 samples.

Results

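The UDP-glucuronosyltransferases (UGT), glutathione S-transferases (GST) and sulfotransferases (SULT) were followed through the livers and aortas of BT3xHuBL and HuBL mice. The members are all features of the count tables whose symbol begins with Ugt1, Ugt2 or Ugt3, with Gst, a class letter and a number, or with Sult and a number, which gave 59 of 24732 features: 21 GST, 18 SULT and 20 UGT genes. The membrane-bound glutathione transferases fall outside this naming rule. RNA of whole tissue was sequenced from 4 BT3xHuBL livers, 4 HuBL livers, 3 BT3xHuBL aortas and 3 HuBL aortas, and the labels give 52 weeks and an ordinary laboratory diet for every library. The strain names are not explained in the labels. From general knowledge of these models, HuBL animals are transgenic for human apolipoprotein B on a background without the LDL receptor, which both groups would then share, and the BT3 line adds T cells with a transgenic receptor against that protein. The title of the series concerns protective immunity, interleukin-10 and plaque stability, so the genotype comparison asks how the added receptor goes with gene expression in each tissue. Nothing in the labels says that the libraries came from separate animals, and p-values therefore measure the spread between these libraries, which may be technical. The labels name no promoter, founder or sex for the lines, and the genotype labels were not checked here against the receptor.

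These enzymes carry out the conjugation step of detoxification, in which a polar group is joined to a drug, hormone, bile pigment or reactive metabolite so that it can be exported. UGTs sit in the endoplasmic reticulum and transfer glucuronic acid from UDP-glucuronate. Most GSTs are cytosolic and couple glutathione to electrophiles, and SULTs transfer sulfate from the donor PAPS to phenols, steroids and bile acids. The hepatocyte is the main site of all 3 reactions, and in mice several of these genes differ between the sexes under growth hormone, or rise when the oxidant sensor NRF2 or the receptors CAR, PXR and AHR are active.

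The promoters of 5 members are printed because the results turn on these genes. Ugt1a1 and Sult1d1 had the smallest genotype p-values in liver, Gsta3 was among the most abundant liver members, and Gstm2 and Ugt1a7c were higher in aorta. The sequences are those of RefSeq on build GRCm38.p6, from 250 bases before to 50 bases after the annotated start, 5′ to 3′ on the strand of the gene. Capitals mark matches, on either strand, to TATAAA (the TATA box) or TGACNNNGC (the core of the antioxidant response element).
Ugt1a1 (chr1:88211709-88212008, plus strand): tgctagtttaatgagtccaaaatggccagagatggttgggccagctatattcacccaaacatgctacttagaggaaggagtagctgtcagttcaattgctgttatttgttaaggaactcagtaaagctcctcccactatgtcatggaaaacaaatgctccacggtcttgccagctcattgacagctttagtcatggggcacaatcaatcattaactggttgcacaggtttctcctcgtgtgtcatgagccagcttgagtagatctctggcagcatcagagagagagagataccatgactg
Sult1d1 (chr5:87568957-87569256, minus strand): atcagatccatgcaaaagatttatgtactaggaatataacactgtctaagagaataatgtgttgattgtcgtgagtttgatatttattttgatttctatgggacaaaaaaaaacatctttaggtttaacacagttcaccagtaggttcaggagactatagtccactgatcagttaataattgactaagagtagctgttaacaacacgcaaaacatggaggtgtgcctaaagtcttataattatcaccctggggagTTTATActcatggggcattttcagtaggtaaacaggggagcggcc
Gsta3 (chr1:21240335-21240634, plus strand): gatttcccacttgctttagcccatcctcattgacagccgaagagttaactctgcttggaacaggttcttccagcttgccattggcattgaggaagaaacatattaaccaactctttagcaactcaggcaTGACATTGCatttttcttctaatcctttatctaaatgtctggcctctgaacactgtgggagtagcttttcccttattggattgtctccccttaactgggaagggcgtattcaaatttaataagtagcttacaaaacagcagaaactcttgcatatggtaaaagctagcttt
Gstm2 (chr3:107986371-107986670, minus strand): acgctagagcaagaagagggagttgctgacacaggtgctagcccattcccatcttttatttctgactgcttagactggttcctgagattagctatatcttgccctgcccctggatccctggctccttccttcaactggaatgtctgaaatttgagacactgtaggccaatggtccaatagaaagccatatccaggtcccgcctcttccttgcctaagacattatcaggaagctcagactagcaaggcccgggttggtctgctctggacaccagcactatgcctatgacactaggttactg
Ugt1a7c (chr1:88094751-88095050, plus strand): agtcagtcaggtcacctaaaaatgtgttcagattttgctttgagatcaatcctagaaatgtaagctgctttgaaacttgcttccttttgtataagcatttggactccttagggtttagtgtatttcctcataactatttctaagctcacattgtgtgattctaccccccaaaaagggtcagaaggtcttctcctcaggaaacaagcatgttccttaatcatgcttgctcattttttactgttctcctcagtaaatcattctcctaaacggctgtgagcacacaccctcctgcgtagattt
The Sult1d1 promoter held TATAAA on the other strand, the Gsta3 promoter held TGACNNNGC, and those of Ugt1a1, Gstm2 and Ugt1a7c held neither. Of the 59 members 51 matched a RefSeq promoter. TATAAA was found in 11 of these 51 (21.6%) and in 15.7% of the 27025 promoters of all genes, and TGACNNNGC in 3 (5.9%; Gsta3, Gstm5 and Gstm7) and 14%. CAAAGTCC (a core of the HNF4 site) was in 1 of the 51 (2.0%, Sult1b1) and 1.6% of all, and TTATGTAA (the D-box bound by clock output factors) in 1 (2.0%, Ugt2b1) and 1.1% of all. None of the motifs contains another. A match describes the letters of the window, not a binding site.

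Liver libraries held 13228123 to 17992459 counts and aorta libraries 41933263 to 65539765. Tissue identity was as labelled: the hepatocyte marker albumin (Alb) lay between 97918 and 137016 CPM (counts scaled to library size) in the 8 livers and at or under 0.458 CPM in the 6 aortas, and the summed smooth muscle markers lay between 22.8 and 59.3 CPM in livers and between 9194 and 12565 CPM in aortas. Transcripts of 4 Y-linked genes summed to 277 CPM or more in every liver and to 146 CPM or more in every aorta, and Xist was at or under 0.246 CPM in all libraries. CPM in the text are scaled over all 14 libraries by TMM, a scaling that sets the bulk of genes level between libraries, and since the kit reads the 3′ end of transcripts they were compared between genes without a length correction. Some livers stood apart in genes outside the families. BT3xHuBL liver 2 had 50.5 CPM of the clock output factor Dbp, against 2.31 to 9.03 CPM in the other 7 livers. BT3xHuBL livers 1 and 4 had 21.0 and 56.4 CPM of Cyp2b9, a cytochrome P450 higher in female liver, against at most 3.18 CPM elsewhere. HuBL liver 1 had the highest level of the NRF2 target Osgin1, at 1132 CPM, but did not stand alone over 18 NRF2 target genes. Their mean log2(CPM + 1) was 6.937 in HuBL liver 1, 6.939 in BT3xHuBL liver 1 and 6.508 to 6.77 in the other livers.

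Of the 59 members, 34 had at least 1 count in both tissues, 16 in liver only, Sult6b1 in aorta only, and 8 in neither: Sult1c1, Sult2a2, Sult2a3, Sult2a4, Sult2a5, Sult2a6, Ugt2a1 and Ugt2a2. A count of 0 allows a level of up to 0.0304 CPM over the 8 livers and 0.00626 CPM over the 6 aortas, taken as 3 counts over the libraries of the tissue and covering counting error only. It limits only reads that could be assigned to the gene: Ugt2a1 and Ugt2a2 share all their 3′ windows of 50 bases with each other and carry an overlap mark, and Sult2a2, Sult2a5, Sult2a4, Sult2a6 and Sult2a3 share 57.6%, 43.5%, 28.4%, 14.9% and 6.4% with other Sult2a genes, so their counts of 0 are uncertain. Means reached 1 CPM for 40 members in liver and 18 in aorta, and 100 CPM for 20 in liver and for Gstm1 alone in aorta. The highest liver means were those of Gstm1, Gsta3, Ugt2b36 and Ugt2b5, at 3157.8, 2340.2, 1201.2 and 1120.1 CPM. Together the members took 0.854% to 1.47% of the counts of a liver and 0.0599% to 0.0706% of those of an aorta. Summed GST transcripts averaged 8216 CPM in liver and 466 CPM in aorta, summed UGT transcripts 5468 and 7.63 CPM, and summed SULT transcripts 607 and 17.3 CPM.

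**Figure D1:**
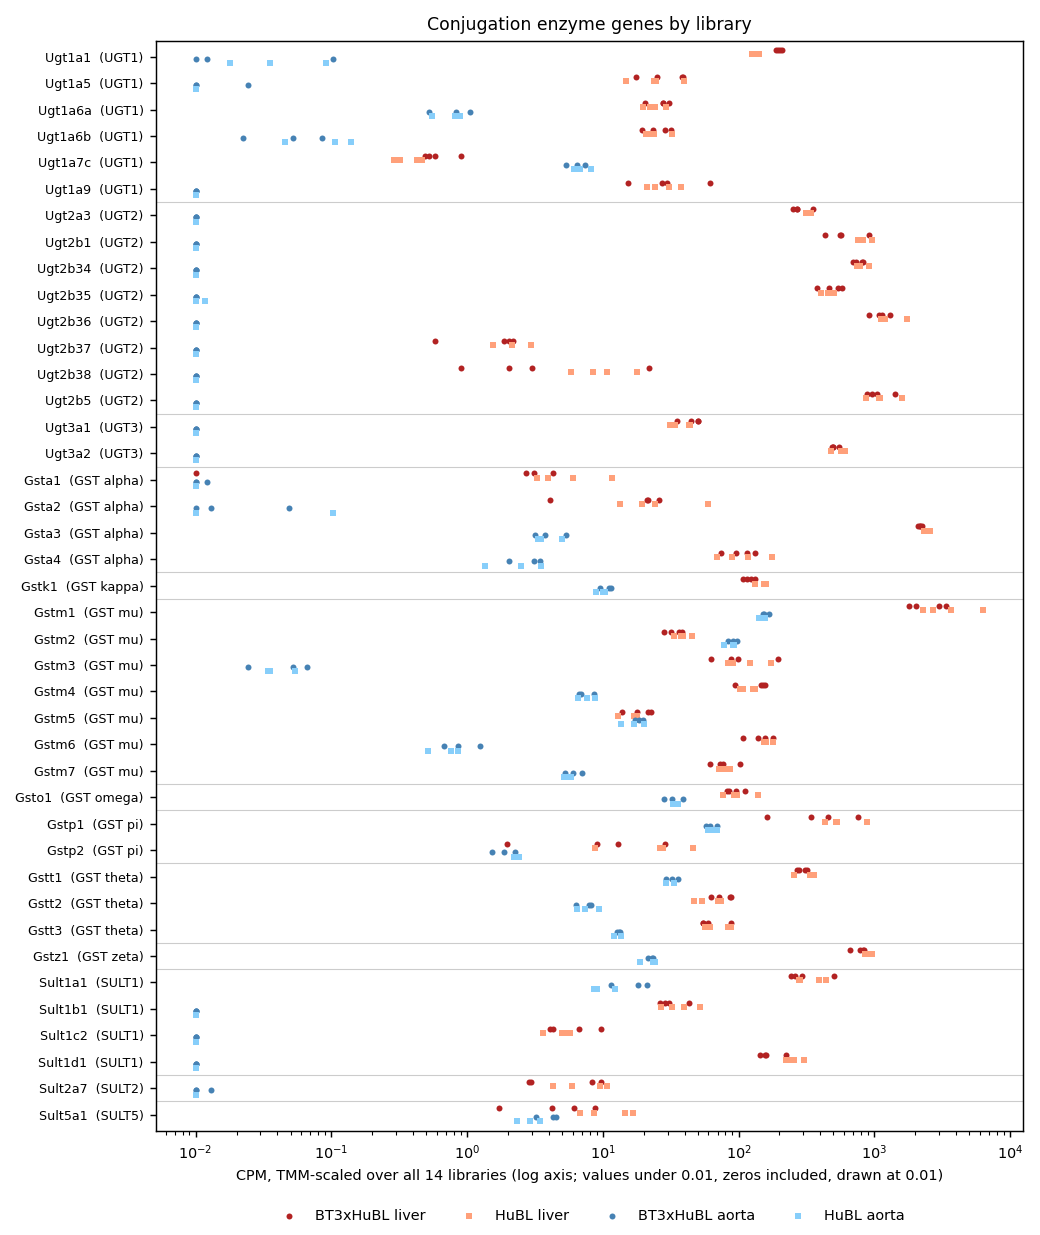
Level of each of the 41 members that averaged at least 1 CPM in liver or in aorta, by library, on a log axis of CPM; values under 0.01, zeros included, are drawn at 0.01, and genes are grouped by family. The UGT2 and UGT3 genes stand between 0.578 and 1732 CPM in livers and at the left edge in aortas, while Gstm2 and Ugt1a7c lie further right in aortas than in livers.

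Liver and aorta differed in nearly every member that could be tested. Of 42 members tested in the 14-library fit, 38 were higher in liver, 3 were lower (Gstm2, Gsto2 and Ugt1a7c), and Gstm5 did not pass (two-sided quasi-likelihood test of edgeR, Benjamini-Hochberg adjusted over 14912 features, threshold 0.05). Over all features 88.3% were called, 42.0% higher and 46.2% lower in liver, so a call alone says little here. Many members entered this fit only through their liver level. Of the 23 members that passed the low-count filter in the aortas alone, all but Sult1e1 and Sult4a1 were also in this fit. Of these 21, 17 were higher in liver, 3 were lower and 1 was not called. Liver and aorta libraries differ in depth and were deposited in separate tables, which cannot be told apart from tissue, and in bulk RNA fewer cells of a type and less RNA per cell cannot be told apart either. The share of called features that were higher in liver was 47.6% with TMM, 42.2% with upper quartile scaling and 26.8% with library totals, whose medians over all features were −0.09, −0.27 and −0.85 on the log2 scale; with library totals 37 members were higher and 4 lower, Gstm5 being the added one.

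The UGT1 family is a single locus, here on chromosome 1 of GRCm38 (GENCODE M21), in which each gene has its own start exon and shares the last ones. All 8 members carry the same 3 listed exons, from 88215044 to 88215175, 88215795 to 88215882 and 88216138 to 88216357. Over the last 500 bases of the transcripts, every 50-base window was shared with another Ugt1a gene for 7 of the 8. The exception was Ugt1a7c, whose annotated end, 88220002, lies beyond that of the others. The sources used here do not say how counting divided reads of the shared exons, and all 8 carry an overlap mark in the tables, so the split between UGT1 genes is uncertain. Summed over the family, the level was 315 ± 20.5 CPM in BT3xHuBL livers, 237 ± 14.6 CPM in HuBL livers, 7.30 ± 1.20 CPM in BT3xHuBL aortas and 7.95 ± 1.20 CPM in HuBL aortas (SD, n = 4, 4, 3 and 3).

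By assigned counts, the leading gene of the family differed between the tissues. Only Ugt1a7c had 3′ windows not shared with other Ugt1a genes, so reads may be assigned to it differently, which was not tested. Ugt1a1, which conjugates bilirubin, made up 63.1% ± 4.60 of UGT1 transcripts in BT3xHuBL livers and 56.3% ± 0.694 in HuBL livers (SD, n = 4 each), and at most 1.30% in any aorta. Ugt1a7c made up at most 0.288% in any liver, against 87.7% ± 3.93 in BT3xHuBL aortas and 88.2% ± 1.93 in HuBL aortas (SD, n = 3 each). Ugt1a7c had 0.527, 0.578, 0.487 and 0.905 CPM in BT3xHuBL livers, 0.319, 0.290, 0.468 and 0.424 CPM in HuBL livers, 7.43, 6.40 and 5.36 CPM in BT3xHuBL aortas and 6.09, 8.18 and 6.78 CPM in HuBL aortas. Every aorta lay above every liver, with a liver-over-aorta log2 fold change of −3.78 (SE 0.18) and adjusted p = 8.16e-12 in edgeR's quasi-likelihood test. Ugt1a6a, an enzyme of planar phenols, was the next UGT1 gene of the aorta. It ran from 19.9 to 30.8 CPM in livers, against 1.05, 0.520 and 0.835 CPM in BT3xHuBL aortas and 0.813, 0.893 and 0.550 CPM in HuBL aortas. Liver exceeded aorta by a log2 fold change of 5.03 (SE 0.18). Ugt1a5, Ugt1a6b and Ugt1a9 averaged 27.8, 25.2 and 31.0 CPM in liver and were at or under 0.141 CPM in every aorta, while Ugt1a2 and Ugt1a10 stayed under 0.5 CPM in all libraries.

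**Figure D2:**
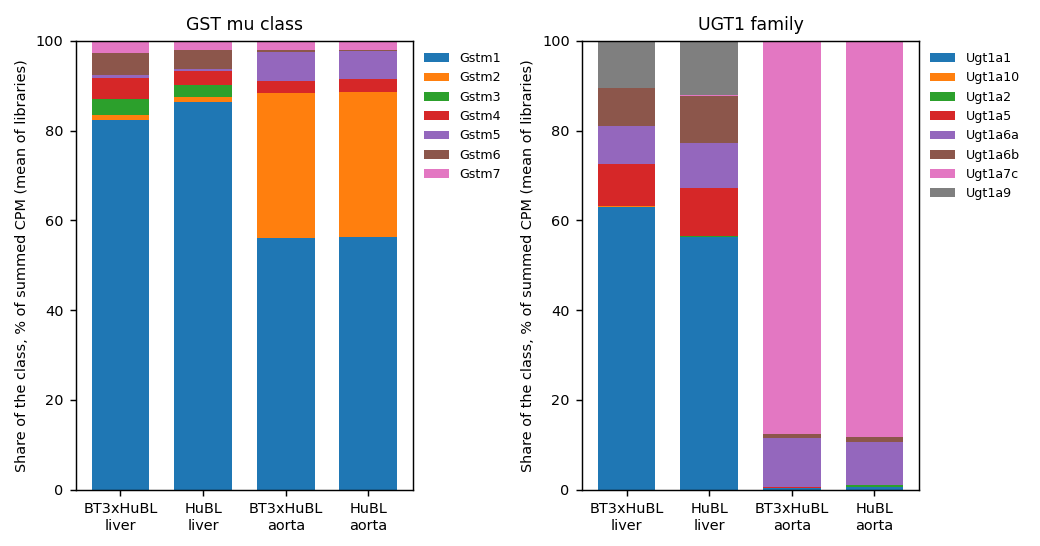
Mean share of each gene in the summed CPM of the GST mu class (left) and of the UGT1 family (right), in percent, for the 4 groups. Gstm2 takes 1.15% and 1.02% of the mu class in BT3xHuBL and HuBL livers and 32.3% in aortas, and Ugt1a7c takes 87.7% and 88.2% of the UGT1 family in BT3xHuBL and HuBL aortas. The split of counts between UGT1 genes is uncertain.

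The UGT2 genes, which glucuronidate steroids, bile acids and many drugs, lie together on chromosome 5 and were liver genes in these data. Their sum was 4357 ± 687 CPM in BT3xHuBL livers and 4873 ± 723 CPM in HuBL livers (SD, n = 4 each), while all 10 genes together gave 1 count over the 6 aortas. Ugt2b36 had 1134, 1075, 1312 and 918 CPM in BT3xHuBL livers and 1732, 1121, 1203 and 1115 CPM in HuBL livers, and 0 counts in aorta. Ugt2b5 had 1043, 879, 1429.6 and 966 CPM in BT3xHuBL livers and 1603, 871, 1093 and 1076 CPM in HuBL livers, again with 0 counts in aorta. With TMM scaling these levels were at least 191474-fold and 179478-fold higher in liver, against 3 counts over the 6 aortas. Ugt2b34, Ugt2b1 and Ugt2a3 had 0 aorta counts too and were at least 125224-fold, 114597-fold and 48480-fold higher in liver. These and later bounds hold for TMM scaling only. Library totals gave smaller ratios of liver to aorta, such as a Gsta3 log2 fold change of 8.42 against 9.18 with TMM. Ugt2b35 gave the only aorta count of the UGT2 family and averaged 467 CPM in liver. Ugt2b37 and Ugt2b38 were minor, at 0.578 to 2.95 and 0.909 to 22 CPM across livers.

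The UGT3 enzymes differ from the others in their sugar: in humans UGT3A1 uses N-acetylglucosamine and UGT3A2 uses glucose or xylose. Ugt3a2 had 499, 492, 549 and 500.2 CPM in BT3xHuBL livers and 611, 579, 573 and 480.4 CPM in HuBL livers, and Ugt3a1 had 34.9, 50.1, 44.7 and 50.5 CPM and 34.1, 43.3, 44.1 and 31.2 CPM. Neither had a count in aorta, and both entered the tissue fit only through their liver level. Liver was at least 85043-fold higher for Ugt3a2 and 6596-fold higher for Ugt3a1.

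The GST alpha class holds Gsta3, known in mice for inactivating the epoxide of aflatoxin, and Gsta4, which handles the lipid aldehyde hydroxynonenal. Gsta3 had 2182, 2108, 2265 and 2172 CPM in BT3xHuBL livers, 2592, 2550.2, 2335 and 2516 CPM in HuBL livers, 5.35, 3.18 and 3.77 CPM in BT3xHuBL aortas and 3.51, 5.0 and 3.34 CPM in HuBL aortas. Its log2 fold change, liver over aorta, was 9.18 (SE 0.18), and it made up 94.5% of alpha-class transcripts there, against 60.5% in aorta. Gsta4 made up most of the remainder in aorta, at 39.1% of the class, and ran from 69.9 to 178 CPM in livers and from 1.35 to 3.53 CPM in aortas. Gsta1 and Gsta2 averaged 4.39 and 23.7 CPM in liver and gave 1 and 14 counts over the 6 aortas. Their 3′ ends share 90.0% and 51.0% of 50-base windows with each other or with other gene models, so their levels are uncertain.

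The mu class, 7 genes on chromosome 3, was the most abundant GST class in both tissues. Gstm1, the main mu enzyme of mouse liver, had 2976, 2026, 3405 and 1800.3 CPM in BT3xHuBL livers, 6380.3, 2705, 2285 and 3686 CPM in HuBL livers, 166, 151 and 155 CPM in BT3xHuBL aortas and 155, 158 and 141 CPM in HuBL aortas. The 6 aortas lay within 1.18-fold of each other and the 8 livers within 3.54-fold, and the log2 fold change, liver over aorta, was 4.33 (SE 0.25). Gstm2 ran the other way. It had 36.6, 28.1, 32 and 38.2 CPM in BT3xHuBL livers, 37.8, 45.4, 33.6 and 38.9 CPM in HuBL livers, 91.2, 84.2 and 97.5 CPM in BT3xHuBL aortas and 90.6, 92.7 and 78.4 CPM in HuBL aortas. Every aorta lay above every liver, and the log2 fold change was −1.30 (SE 0.08) with adjusted p = 3.59e-10 (edgeR's quasi-likelihood test). Within a library, Gstm1 exceeded Gstm2 by 47.1-fold to 168.7-fold in livers and by 1.59-fold to 1.82-fold in aortas. Gstm5 stood at 21.7, 13.9, 17.9 and 22.5 CPM in BT3xHuBL livers, 16.8, 16.9, 12.9 and 18 CPM in HuBL livers, 18.3, 17.3 and 19.7 CPM in BT3xHuBL aortas and 16.9, 20.2 and 13.6 CPM in HuBL aortas, and these ranges overlapped. Its log2 fold change was −0.01 (SE 0.12), adjusted p = 0.952, though with library totals it was −0.77 and called; the feature carries an overlap mark. Gstm3, Gstm4, Gstm6 and Gstm7 averaged 114, 127, 155 and 78.5 CPM in liver. In aorta Gstm4 and Gstm7 averaged 7.54 and 5.83 CPM, Gstm6 was at or under 1.24 CPM in every library, and Gstm3 gave 21 counts over the 6 aortas.

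The pi and omega classes had smaller ratios of liver to aorta than alpha and mu. Gstp1, the pi-class enzyme that in mice is higher in male liver, had 459.9, 342, 754 and 162 CPM in BT3xHuBL livers, 891, 432, 528 and 519 CPM in HuBL livers, 61.7, 58.0 and 69.0 CPM in BT3xHuBL aortas and 63.5, 68.9 and 59.2 CPM in HuBL aortas. All livers lay above all aortas (log2 fold change 2.99, SE 0.30), but livers spanned 5.50-fold and aortas 1.19-fold. Gstp2 ran from 1.96 to 45.9 CPM in livers and from 1.53 to 2.43 CPM in aortas; it shares 88.9% of its 3′ windows, and Gstp1 75.2%, with the other pi gene or a pseudogene, so reads could have been exchanged between them. Gsto1, an omega enzyme that reduces dehydroascorbate, had 95.3, 84.8, 112 and 82.2 CPM in BT3xHuBL livers, 138, 97.4, 77.3 and 93.1 CPM in HuBL livers, 28.5, 38.7 and 32.6 CPM in BT3xHuBL aortas and 33.0, 36.1 and 32.6 CPM in HuBL aortas. Its log2 fold change of 1.54 (SE 0.12) was the smallest of the GST genes called higher in liver. Gsto2, its neighbour, was under 1 CPM in all libraries, with 0.376, 0, 0.0812 and 0.377 CPM in BT3xHuBL livers, 0.0798, 0, 0.0935 and 0 CPM in HuBL livers, 0.725, 0.476 and 0.206 CPM in BT3xHuBL aortas and 0.572, 0.0893 and 0.351 CPM in HuBL aortas. It was called lower in liver at −2.04 (SE 0.71, adjusted p = 0.0134, edgeR), although the tissues overlapped, and within BT3xHuBL alone the value was −1.12 and not called.

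Theta, kappa and zeta genes were present in both tissues. Gstt1, a theta enzyme acting on small halogenated compounds, averaged 309 CPM in liver and 31.5 CPM in aorta (log2 fold change 3.29, SE 0.10). Gstt2 and Gstt3 ran from 47.3 to 87.6 and 54.3 to 88.5 CPM in livers and from 6.33 to 9.32 and 12.2 to 13.7 CPM in aortas, and Gstt4 gave 1 count in liver and 25 in aorta. Gstk1, the kappa enzyme of mitochondria and peroxisomes, had 108, 116, 124 and 133 CPM in BT3xHuBL livers, 158, 155, 132 and 153 CPM in HuBL livers, 11.1, 9.47 and 11.5 CPM in BT3xHuBL aortas and 10.3, 9.96 and 8.86 CPM in HuBL aortas, a log2 fold change of 3.72 (SE 0.08), liver over aorta. Gstz1, which isomerises maleylacetoacetate in tyrosine breakdown, had 660.3, 842, 781 and 826 CPM in BT3xHuBL livers, 859, 966, 870.4 and 926 CPM in HuBL livers, 23.2, 21.4 and 23.5 CPM in BT3xHuBL aortas and 24.1, 23.4 and 18.7 CPM in HuBL aortas. The log2 fold change, liver over aorta, was 5.23 (SE 0.10), and the feature carries an overlap mark. Set out by class, the mean of liver over that of aorta was 369-fold for alpha, 37.6-fold for zeta, 13.4-fold for mu, 13.2-fold for kappa, 8.56-fold for theta, 8.11-fold for pi and 2.88-fold for omega.

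Among the sulfotransferases the SULT1 family carried most of the transcripts. Sult1a1, a phenol sulfotransferase, had 244, 292, 259.9 and 501 CPM in BT3xHuBL livers, 283, 439, 279 and 389.7 CPM in HuBL livers, 18.3, 21.0 and 11.5 CPM in BT3xHuBL aortas and 9.09, 12.3 and 8.63 CPM in HuBL aortas, and made up 49.2% to 71.4% of SULT1 transcripts in livers and at least 97.2% in every aorta. Liver exceeded aorta by a log2 fold change of 4.69 (SE 0.23). Sult1d1, an enzyme of catecholamines and other phenols in mice, had 144, 223, 158 and 160.0 CPM in BT3xHuBL livers, 255, 305, 244 and 224 CPM in HuBL livers and 0 counts in aorta, at least 33671-fold higher in liver. Sult1b1, known for sulfating thyroid hormones, had 26.3, 42.8, 28.6 and 30.5 CPM in BT3xHuBL livers, 26.9, 51.7, 39.5 and 32.4 CPM in HuBL livers and 0 counts in aorta. Sult1c2 ran from 3.65 to 9.73 CPM in livers with 0 counts in aorta. Sult1e1, the estrogen sulfotransferase, stayed under 1 CPM in every library. The Sult2a1 to Sult2a6 genes and Sult3a1, which are known to be higher in female mouse liver, had few or no assigned counts. Sult2a1 gave 2 counts over the 8 livers, Sult3a1 18, and Sult2a2, Sult2a3, Sult2a4, Sult2a5 and Sult2a6 none; Sult2a1 shares 13.1% of its 3′ windows with other Sult2a genes, and those at 0 share the portions given above. Sult2a7 had 2.93, 9.67, 2.84 and 8.30 CPM in BT3xHuBL livers and 5.90, 10.7, 4.30 and 9.47 CPM in HuBL livers. Sult2b1, which sulfates cholesterol, gave 4 counts in liver and 42 in aorta, and Sult4a1, known from brain, 29 and 89. Sult5a1 had 1.73, 6.12, 8.77 and 4.22 CPM in BT3xHuBL livers, 8.62, 16.7, 14.7 and 6.79 CPM in HuBL livers, 4.28, 3.22 and 4.55 CPM in BT3xHuBL aortas and 2.35, 3.43 and 2.89 CPM in HuBL aortas. It was called higher in liver at 1.19 (SE 0.29, adjusted p = 0.00138, edgeR), but was not called with library totals (0.43) or within BT3xHuBL alone (0.37).

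In liver, no member passed the test of BT3xHuBL against HuBL, and Ugt1a1 came nearest. Over all 12453 features tested with edgeR's quasi-likelihood test 0.0% were called, 1381 had an unadjusted p under 0.05, and of the 40 members tested 0 were called and 4 had an unadjusted p under 0.05 (Ugt1a1, Sult1d1, Gstk1 and Sult5a1). With DESeq2 133 features were called, Ugt1a1 and Sult1d1 among them. The members' median log2 fold change was −0.15 and that of all features 0.01. Of the members 11 were above 0 and 29 below, whereas 51.8% of all features were above 0. By enzyme, 3 of 19 GST, 1 of 6 SULT and 7 of 15 UGT genes were above 0. Groups did not overlap for 4 of the 40 members (Gsta3, Gstz1, Sult1d1 and Ugt1a1), against 6.5% of all features. The called count over all features was 5 without BT3xHuBL liver 2 and 2 without BT3xHuBL liver 3, and no member was called with any library left out.

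Ugt1a1 was measured at 194, 210.2, 188 and 201 CPM in BT3xHuBL livers and at 127, 142, 138 and 126 CPM in HuBL livers. All 4 BT3xHuBL livers lay above all 4 HuBL livers, and the spread within each group was small: the means were 198 ± 9.59 and 133 ± 8.26 CPM (SD, n = 4 each), from 2576, 2544, 2315 and 2663 counts in BT3xHuBL livers and 1592, 1471, 1476 and 1776 counts in HuBL livers. The log2 fold change was 0.57 (SE 0.08), with an unadjusted p = 2.10e-05 and adjusted p = 0.131 in edgeR and adjusted p = 1.27e-07 in DESeq2. Across 19 alternative settings it ran from 0.52 to 0.61, with adjusted p of 0.103 to 0.398 when a library was left out. Ugt1a9, Ugt1a5, Ugt1a6a and Ugt1a6b did not share this separation. Ugt1a9 had 62.0, 15.4, 27.2 and 29.5 CPM in BT3xHuBL livers and 37.6, 21.1, 24.2 and 30.7 CPM in HuBL livers, Ugt1a5 38.6, 24.9, 17.5 and 38.9 and 14.9, 39.5, 23.9 and 24.5 CPM, with log2 fold changes of 0.24 (SE 0.41) and 0.23 (SE 0.34). Ugt1a6a and Ugt1a6b gave 0.17 (SE 0.15) and 0.07 (SE 0.18). Ugt1a7c, too low in liver for the test, was also higher in every BT3xHuBL liver than in every HuBL liver, on 3 to 12 counts a library. Since Ugt1a1 shares its last exons with the family, reads of its neighbours could be included in its count.

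Sult1d1 gave the next smallest p among members. Its values, 144, 223, 158 and 160.0 CPM in BT3xHuBL livers against 255, 305, 244 and 224 CPM in HuBL livers, did not overlap between the groups, though BT3xHuBL liver 2 at 223 CPM lay just under HuBL liver 4. The log2 fold change was −0.59 (SE 0.14), adjusted p = 0.281 in edgeR and 0.0241 in DESeq2. Gstk1 had 108, 116, 124 and 133 CPM in BT3xHuBL livers and 158, 155, 132 and 153 CPM in HuBL livers, where BT3xHuBL liver 4 slightly exceeded HuBL liver 3. Its log2 fold change was −0.32 (SE 0.09), adjusted p = 0.286 in edgeR. Sult5a1, with 1.73, 6.12, 8.77 and 4.22 CPM in BT3xHuBL livers and 8.62, 16.7, 14.7 and 6.79 CPM in HuBL livers, gave −1.17 (SE 0.46). Ugt2b1, a liver UGT2 enzyme, had 556, 567, 911 and 433 CPM in BT3xHuBL livers and 792, 824, 969 and 763 CPM in HuBL livers and gave −0.44 (SE 0.20); BT3xHuBL liver 3 lay inside the HuBL range and the other 3 below it. Leaving out each library moved Sult1d1 between −0.74 and −0.49 and Ugt2b1 between −0.69 and −0.30.

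**Figure D3:**
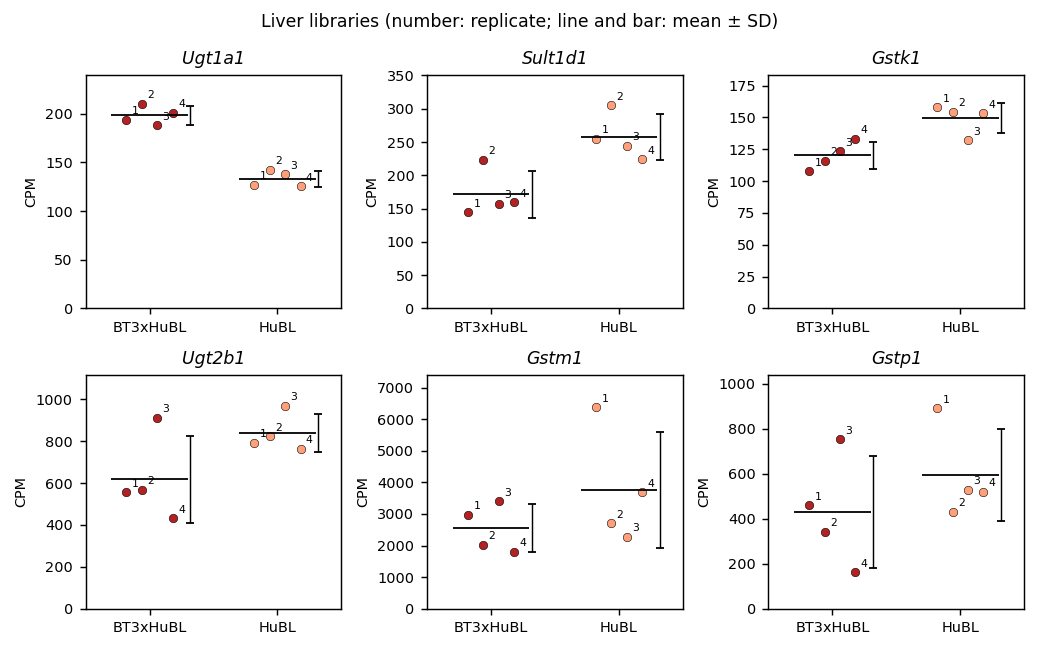
CPM of 6 members in each of the 8 livers, with the library number beside each point and the mean ± SD (n = 4) as a line and bar. Ugt1a1 is separated, with BT3xHuBL livers at 188 CPM or more and HuBL livers at 142 CPM or less, Sult1d1 is separated in the other direction, and the groups overlap for Gstk1, Ugt2b1, Gstm1 and Gstp1.

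No difference passed the test in the abundant liver members. Gsta3 averaged 2182 ± 64.7 CPM in BT3xHuBL livers and 2499 ± 113 CPM in HuBL livers (SD, n = 4 each) without overlap, a log2 fold change of −0.19 (SE 0.09), and Gstz1 averaged 777 ± 82.4 and 905 ± 50.1 CPM, −0.22 (SE 0.10). Neither passed, with adjusted p of 0.464 and 0.452 in edgeR. Gstm1 averaged 2552 ± 763 CPM in BT3xHuBL livers and 3764 ± 1840.4 CPM in HuBL livers, and its log2 fold change of −0.56 (SE 0.34) did not pass; HuBL liver 1, at 6380.3 CPM, was the highest liver. Gstp1 averaged 429.7 ± 249 and 593 ± 204 CPM with −0.46 (SE 0.45), and the value of 162 CPM in BT3xHuBL liver 4 was the lowest. The UGT2 genes Ugt2b5, Ugt2b34, Ugt2b35, Ugt2b36 and Ugt2a3 gave −0.10, −0.07, 0.15, −0.22 and −0.18 (SE 0.10 to 0.20), and Ugt3a1 and Ugt3a2 0.24 and −0.14. Gstt2 was the GST gene furthest above 0, with 87.6, 72.1, 87.1 and 62.9 CPM in BT3xHuBL livers and 70.9, 53.9, 47.3 and 74.1 CPM in HuBL livers (0.33, SE 0.16). Gsta1 and Gstp2 gave other low values, −1.31 (SE 0.78) and −1.05 (SE 0.77), on levels of 0 to 4.29 and 1.96 to 28.6 CPM in BT3xHuBL livers and 3.27 to 11.7 and 8.71 to 45.9 CPM in HuBL livers.

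**Figure D4:**
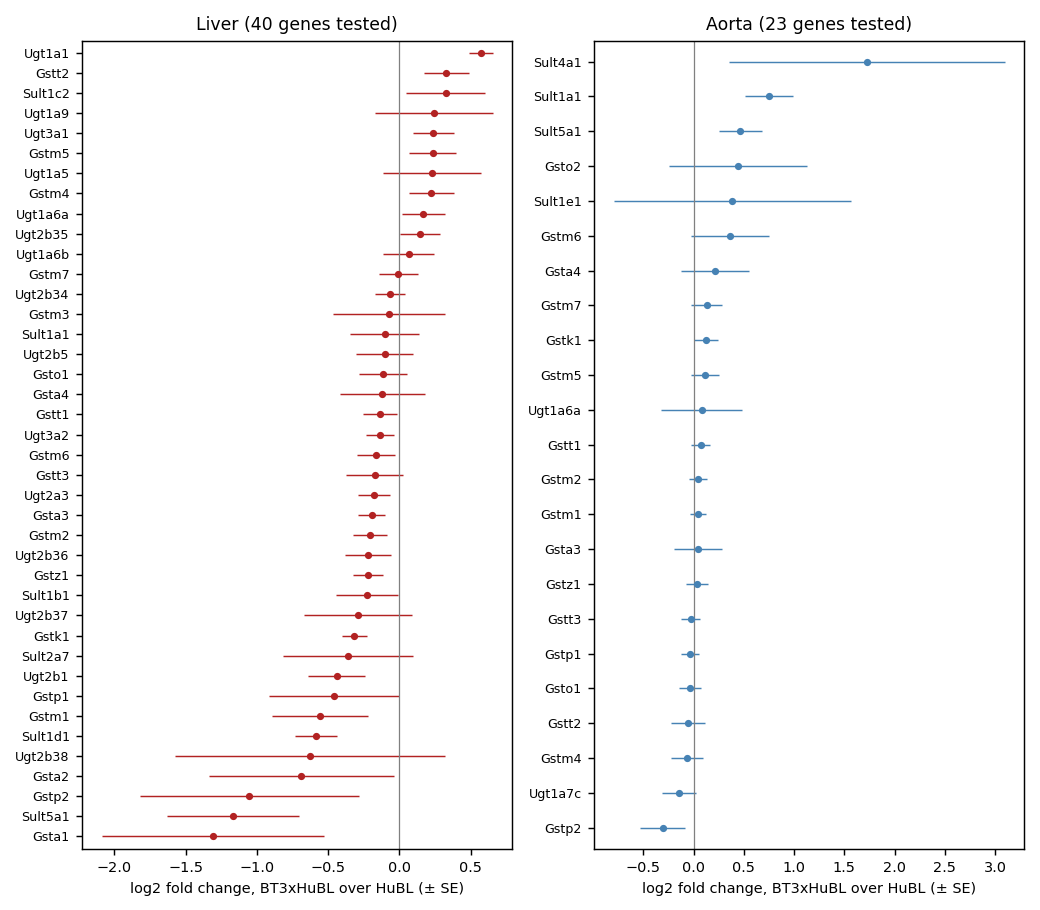
Log2 fold change of BT3xHuBL over HuBL (point) with its standard error (line) for the 40 members tested in liver and the 23 tested in aorta, ordered by size. In liver Ugt1a1 stands at the top with a short error and 29 members lie below 0; in aorta Sult4a1, a gene under 1 CPM, has the widest error and most members lie near 0.

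Genes of other lists are given beside these values, none of them called, and their part in the results was not tested. Of 17 female-biased liver genes found, 9 passed the low-count filter in liver, and all 9 were above 0 (median 2.04). A gene low in 1 group could pass that filter through the other group alone, so this count is partly set by the filter. The summed level of the 17 ran from 83.0 to 474 CPM in BT3xHuBL livers and from 69.9 to 122 CPM in HuBL livers. Of 14 male-biased genes 4 were above 0 (median −0.38), with sums of 7589 to 15397 CPM in BT3xHuBL livers and 9553 to 15808 CPM in HuBL livers. Of 14 periportal hepatocyte genes 1 was above 0 (median −0.26; sums 9872 to 12892 and 12573 to 15089 CPM), and of 13 pericentral genes 10 were (median 0.21; sums 12801 to 14554 and 11104 to 12830 CPM). The 17 clock genes had 11 above 0 (median 0.12), with sums of 697 to 1052 CPM in BT3xHuBL livers and 665 to 765 CPM in HuBL livers. Hepatocyte markers overlapped, at 181310 to 254851 CPM in BT3xHuBL livers and 187886 to 230827 CPM in HuBL livers.

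The spread between livers was wide for some members. Among the 34 members with a liver mean of at least 10 CPM, the highest of the 8 livers exceeded the lowest by a median of 1.71-fold, and by at least 2-fold for 11 (32.4%). For all 8520 features at that level the median was 1.42-fold and the share 10.5%. The widest were Gstp2 (23.4-fold), Gsta2 (14.6-fold), Gstp1 (5.50-fold), Ugt1a9 (4.03-fold), Gstm1 (3.54-fold) and Gstm3 (3.11-fold), and the narrowest were Gsta3 (1.23-fold) and Ugt3a2 (1.27-fold). In the 6 aortas 10 members reached 10 CPM, with a median of 1.27-fold and 1 (Sult1a1) of at least 2-fold, against 1.23-fold and 2.05% for 8961 features.

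Ugt2b1 was compared with male-biased liver genes across livers. The score was the mean log2(CPM + 1) of 14 male-biased genes, and was 7.0, 7.12, 8.16 and 6.65 in BT3xHuBL livers 1 to 4 and 7.72, 7.77, 7.97 and 7.54 in HuBL livers 1 to 4. Over the 8 livers Pearson's r with log2(CPM + 1) of Ugt2b1 was 0.98 (exact permutation p = 0.000198, adjusted p = 0.0159) and Spearman's rho 0.98 (exact permutation p = 0.000397, adjusted p = 0.0318). It was 0.95 without the 2 livers farthest from the median score and 0.99 after removing the genotype means; 4 livers per genotype were too few to give it within each. This was 1 of 80 relations, 40 members against 2 scores, and the only one with an adjusted p under 0.05. The scores were chosen with the values known, a choice that the adjustment does not cover. The permutations ran over all 8 livers without regard to genotype. Ugt2b38 gave r = 0.89 (adjusted permutation p = 0.0814) and Gstp1 r = 0.80 (adjusted permutation p = 0.162). Against the score of 18 NRF2 target genes, Gsta4 gave r = 0.92 and Gstm3 r = 0.91, with adjusted permutation p of 0.0526 and 0.0774.

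**Figure D5:**
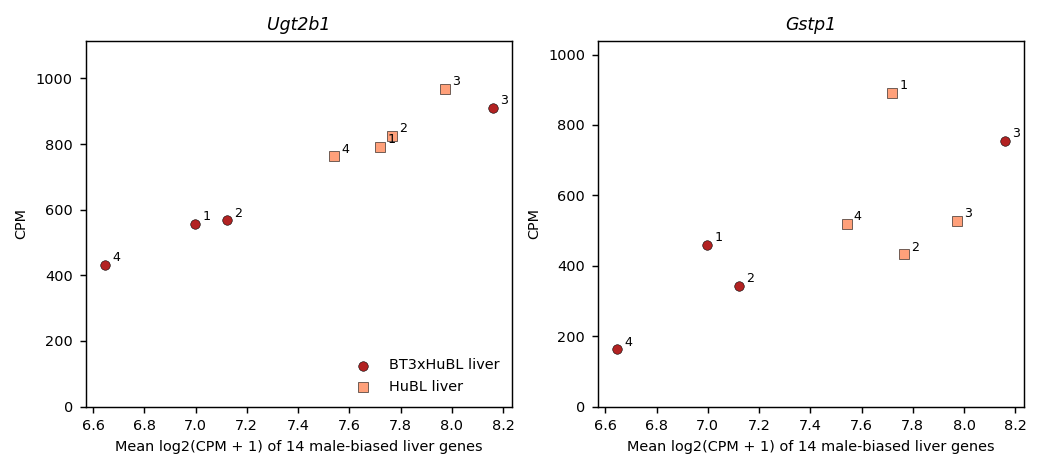
CPM of Ugt2b1 and Gstp1 against the mean log2(CPM + 1) of 14 male-biased liver genes in each of the 8 livers, numbered by library. BT3xHuBL liver 4 has the lowest score, 6.65, and the lowest level of both genes, while BT3xHuBL liver 3 has the highest score, 8.16.

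In aorta, no member passed the test of BT3xHuBL against HuBL. Of 15400 features tested with edgeR's quasi-likelihood test 4 (0.026%) were called, 2 higher and 2 lower (0.013% each), and of the 23 members tested 0 were called and 1 had an unadjusted p under 0.05, against 629 of all features. The members' median log2 fold change was 0.07 and that of all features −0.0044; 16 members were above 0 and 7 below, where 48.5% of all features were above. Groups overlapped for all 23 members, while 9.42% of features did not overlap. The called count over all features was 2 without HuBL aorta 1, 0 without HuBL aorta 2 or HuBL aorta 3, and 27 without BT3xHuBL aorta 3, with 0 members called each time.

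Sult1a1 had the smallest p of the aorta members. It had 18.3, 21.0 and 11.5 CPM in BT3xHuBL aortas and 9.09, 12.3 and 8.63 CPM in HuBL aortas, where BT3xHuBL aortas 1 and 2 lay above all HuBL aortas and BT3xHuBL aorta 3 among them. The log2 fold change was 0.75 (SE 0.24), with unadjusted p = 0.0165 and adjusted p = 0.9999 in edgeR and adjusted p = 0.0823 in DESeq2. Leaving out each library moved the log2 fold change between 0.57 (without BT3xHuBL aorta 2) and 0.97 (without BT3xHuBL aorta 3). The adjusted p in edgeR then ran from 0.0662 (without BT3xHuBL aorta 3) to 0.9997. Sult5a1 had 4.28, 3.22 and 4.55 CPM in BT3xHuBL aortas and 2.35, 3.43 and 2.89 CPM in HuBL aortas, a log2 fold change of 0.47 (SE 0.21). Gstp2 gave −0.31 (SE 0.23) and Gstk1 0.13 (SE 0.12). Sult4a1 had the widest value, 1.73 (SE 1.37), on 0.557, 0.310 and 0.0121 CPM in BT3xHuBL aortas and 0, 0.250 and 0.0351 CPM in HuBL aortas. It ran from 0.87 without BT3xHuBL aorta 1 to 3.95 without HuBL aorta 2, and was 1.07 without HuBL aorta 1. Gstm1, Gstm2, Gstp1 and Gsto1, the most abundant members in aorta, differed by less than the spread between libraries. Gstm1 averaged 157 ± 7.89 CPM in BT3xHuBL aortas and 151 ± 9.05 CPM in HuBL aortas, Gstm2 91.0 ± 6.67 and 87.2 ± 7.71 CPM, Gstp1 62.9 ± 5.58 and 63.9 ± 4.89 CPM, and Gsto1 33.2 ± 5.16 and 33.9 ± 1.88 CPM (SD, n = 3 each). Their log2 fold changes were 0.04 (SE 0.08), 0.05 (SE 0.09), −0.03 (SE 0.09) and −0.04 (SE 0.11). Ugt1a7c gave −0.14 (SE 0.17).

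Beside these values, the called features in aorta included the clock output factor Dbp (1.44, SE 0.13), and 13 of 17 clock genes were above 0 (median 0.47; summed 655 to 814 CPM in BT3xHuBL aortas and 524 to 569 CPM in HuBL aortas). All 7 B and plasma cell genes tested were below 0 (median −1.68; summed 46.4 to 127 and 231 to 455 CPM), and all 10 white adipocyte genes above 0 (median 0.34; summed 614 to 854 and 421 to 701 CPM). Of 8 striated muscle genes 5 were above 0 (median 0.23; summed 46.5 to 59.4 CPM in BT3xHuBL aortas and 28.3 to 31.5 CPM in HuBL aortas, without overlap), and Tcap, a protein of the muscle sarcomere, was called (1.22, SE 0.13). Hepatocyte markers summed to 324 to 363 CPM in BT3xHuBL aortas and 273 to 354 CPM in HuBL aortas, of which haptoglobin (Hp) gave means of 298 and 279.7 CPM. Their part in the members' values was not tested.

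The genotype effects of liver and aorta were also set against each other directly. The interaction of genotype and tissue was called for 0.0% of 14912 features and for 0 of 42 members in edgeR, with an unadjusted p under 0.05 for 1217 features and 4 members; DESeq2 called 44 features and 0 members. The called count was 3 without BT3xHuBL liver 2. Sult5a1 gave −1.64 (SE 0.57), with a log2 fold change of −1.17 in liver and 0.47 in aorta. Gstk1 gave −0.45 (SE 0.14), Sult1a1 −0.86 (SE 0.38) and Ugt1a7c 0.86 (SE 0.39), with adjusted p between 0.462 and 0.602. Gstm6 followed at −0.55 (SE 0.30). For Ugt1a1 the interaction was 1.07 (SE 0.79), with 21 counts over the 6 aortas.

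The genes that supply and follow the conjugation reactions were described from lists, and none of them was called between genotypes in either tissue. For UDP-glucuronate supply, 6 of 10 genes were above 0 in liver and 1 of 10 in aorta; Ugdh, which makes UDP-glucuronate, averaged 323 ± 80.9 CPM in BT3xHuBL livers, 321 ± 63.0 CPM in HuBL livers, 62.2 ± 1.11 CPM in BT3xHuBL aortas and 65.8 ± 4.34 CPM in HuBL aortas. For glutathione synthesis and recycling, 5 of 16 were above 0 in liver and 11 of 18 in aorta, and Gclc, the catalytic subunit of the rate-limiting step, averaged 705 ± 135, 722 ± 223, 30.9 ± 1.41 and 31.0 ± 1.40 CPM in the same order of groups. The lowest liver p of that list was that of Chac1, which degrades glutathione (1.28, SE 0.35), followed by the cystathionine lyase Cth (−0.65, SE 0.20). For PAPS supply, 3 of 8 and 4 of 7 were above 0, and Papss2, which makes PAPS, gave −0.19 (SE 0.13) in liver and 0.04 (SE 0.08) in aorta. Of 13 export and uptake transporters 8 were above 0 in liver, led by Abcc2, the pump that carries glucuronides into bile, at 556 ± 56.7 CPM in BT3xHuBL livers and 394 ± 52.2 CPM in HuBL livers (0.50, SE 0.12); in aorta 6 of 8 were above 0. Deconjugating enzymes had 4 of 10 and 5 of 10 above 0, and membrane glutathione enzymes 6 of 11 and 10 of 13.

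Other conjugating enzymes, such as acyl- and methyltransferases, had 1 of 14 above 0 in liver (median −0.18) and 7 of 11 in aorta (median 0.04). Nat8, an acetyltransferase of cysteine conjugates, averaged 32.9 ± 8.03 CPM in BT3xHuBL livers and 50.4 ± 6.48 CPM in HuBL livers (−0.61, SE 0.16), and Tpmt, the thiopurine methyltransferase, 61.7 ± 4.75 and 82.1 ± 12 CPM (−0.41, SE 0.11). Among the regulators 9 of 17 were above 0 in liver and 9 of 15 in aorta, and the nuclear receptor CAR (Nr1i3) gave 0.47 (SE 0.15) in liver, at 193 ± 30.5 CPM in BT3xHuBL livers and 139 ± 29.3 CPM in HuBL livers. NRF2 targets had 5 of 18 above 0 in liver and 7 of 19 in aorta (medians −0.07 and −0.03), and targets of CAR, PXR and AHR 7 of 14 and 6 of 9 (medians −0.01 and 0.15). The liver regulator Hnf4a averaged 812 ± 160.1 CPM in BT3xHuBL livers and 769.7 ± 82.1 CPM in HuBL livers and was at or under 0.0714 CPM in every aorta.

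The promoters of the members also differed in base composition with where the gene was expressed, as a description over 51 genes that lie partly in clusters of related copies. Median GC content was 55.8% for the 16 members that reached 1 CPM in aorta, 43.0% for the 20 that reached it in liver only and 37.3% for the 15 that reached it in neither, against 52.8% for all 27025 promoters. The ranges overlapped, at 40.0% to 62.7%, 31.7% to 56.0% and 30.7% to 63.7%. Ugt1a7c, at 40.0%, had the lowest value of the aorta members and Gstp1, at 62.7%, the highest.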

How the data were processed

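Tissue RNA was extracted with Qiagen RNeasy and made into Lexogen QuantSeq V2 3′ libraries, per the labels' protocols. The deposited values are raw counts per feature in 2 tables, made with HTSeq 2.0 on GRCm38 per the submitters' processing notes; the sources used here do not give the aligner, strand setting or annotation. Feature names were shortened to the symbol, and positions came from GENCODE M21 by symbol.

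Counts were tested with edgeR 4.0.16 (R 4.3.3): filterByExpr, TMM scaling, the robust quasi-likelihood F-test and Benjamini-Hochberg adjustment over all features tested, at a threshold of 0.05. Genotype was tested within each tissue, and tissue and the interaction in all 14 libraries. Fold changes use a prior count of 0.125. The SE given with a log2 fold change is its absolute value divided by the square root of the F statistic. The procedure was tested on simulated counts with 200 changed features, drawn at random from all features tested. Of 1.5-fold genotype changes it recovered 33.3% in liver and 45.3% in aorta, and 7.35% for the interaction. Of 2-fold changes it recovered 76.1%, 70.5% and 45% in the same order. False calls were 10 of 146 in liver, 8 of 141 in aorta and 3 of 85 for the interaction. Recovery among the members, or with fewer changed features, was not tested. Alternatives were other scalings and filters, DESeq2 1.42.0, limma-voom (limma 3.58.1), no robust weights, a replicate block, a fit of all 14 libraries, single genotypes and each library left out. Tables and figures used Python 3.11.15, pandas 2.3.3 and matplotlib 3.10.9.

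Members named were those past the threshold between genotypes, the 5 of smallest p per tissue, the 2 most abundant of each family per tissue, and the 10 of smallest tissue p in each direction; a few others were named after their values were seen. The members and lists were chosen with earlier results of these data known. The limit of 3 counts covers counting error only.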

Additional observations from a re-analysis of the deposited data

Results flagged for a closer look

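In 80 groups of 4 livers, 1 per tested member and genotype, 4 had a library whose gap to the nearest other exceeded Dixon's critical share of the group's range. Chance alone gives about 1 in 20 such groups. Gstt3 stood at 88.5 CPM in BT3xHuBL liver 1, with the nearest BT3xHuBL liver at 59.5 CPM (0.847 of the range). Ugt2b38 stood at 22 CPM in BT3xHuBL liver 3, from 271 counts, with the nearest at 3.01 CPM (0.9 of the range). Ugt3a2 stood at 549 CPM in BT3xHuBL liver 3, with the nearest at 500.2 CPM (0.859 of the range). Ugt2b36 stood at 1732 CPM in HuBL liver 1, with the nearest HuBL liver at 1203 CPM (0.857 of the range).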

How the results depend on the processing

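The number of features called between genotypes in liver, 0 in edgeR's quasi-likelihood test, was 133 with DESeq2 (2 of them members, Ugt1a1 and Sult1d1), 5 in the fit of all 14 libraries, 0 to 5 with a library left out and 8 without BT3xHuBL livers 2 and 4, an alternative chosen after seeing the data. In aorta the count of 4 was 9 without the filter on low counts, 68 with DESeq2, 0 with limma-voom and 0 to 27 with a library left out. For the interaction the count of 0 was 44 with DESeq2, 0 to 3 with a library left out and 12 without BT3xHuBL livers 2 and 4. With the replicate block the counts were 10 in liver, 14 in aorta and 0 for the interaction, with 0 members called. The labels do not say that the numbers mark pairs. Between BT3xHuBL and HuBL libraries of the same number, correlations were −0.042 to 0.159 in liver and −0.058 to 0.135 in aorta. Only liver numbers 2 and 3 and aorta number 2 correlated best with their own. With so few libraries this cannot decide whether the numbers mark pairs, and the block within a tissue was not taken as a paired design. For the interaction, the block joined liver and aorta libraries of the same genotype and number, a link that was not checked. The labels do not say whether such libraries came from the same animals, and the main fit treated all 14 as independent. For Gstm5 the tissue difference of −0.01 was 0.0018 with limma-voom, 0.044 in BT3xHuBL alone and −0.094 to 0.063 with a library left out. Of the single-gene values under alternatives, 754 kept direction and call, 7 turned direction (all Gstm5), 3 gained a call and 3 lost one (Gsto2 and Sult5a1). The cause of these changes was not tested. Depth limits members under 1 CPM, and liver libraries were shallower than aorta libraries.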
